A study of Homo sapiens with 50 samples.

Results

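The cytosolic ribosomal protein genes were described here through the listed positions of their 5′ ends and of their RNA polymerase II (Pol II) pause sites. DLD-1 is an established human cell line from a colorectal adenocarcinoma, and the authors' list for it holds 6481 genes with an hg38 interval and 1 pause site each. Members were the entries whose RefSeq gene is protein coding and has a symbol of RPL or RPS with digits and an optional A, X or L, or is RPLP0, RPLP1, RPLP2 or RPSA. By this rule 39 of the 6481 entries were ribosomal protein genes, 22 of the large and 17 of the small subunit. Symbols were assigned by position. For 34 members the 3′ end of the entry was matched to RefSeq, and for 5 (RPL13, RPL28, RPL34, RPS3 and RPS24) the listed start itself, which had to lie within 50 bp of RefSeq's. Pause sites and sequences were not used.

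The study concerns SPT6, an elongation factor that also chaperones histones, and its part with the PAF1 complex in letting paused Pol II proceed. It comprises 50 ChIP-seq libraries, 1 of them an input control, in 32 groups, 18 of 2 libraries and 14 of 1. The labelled genotypes were OsTIR1 (the parental line), SPT6-AID OsTIR1, PAF1-AID OsTIR1, SPT6-AID/PAF1-AID OsTIR1 and SPT6-AID/NELF-C-AID OsTIR1, so that every line, controls included, carried the auxin receptor OsTIR1, which directs degradation of a protein tagged with the auxin-inducible degron (AID). Cells received vehicle for 2 h or 500 µM auxin for 2 or 6 h, or were taken at 0 h of auxin, and the labels do not say whether a line is 1 clone. Signal tracks were not used here, and which libraries the lists were made from is not stated in the labels. The lists hold 1 value per gene for the whole series, so no library, treatment or replicate error enters any value below, the depth behind each site is unknown, and every spread is between genes. Of 13 colon epithelium markers, 6 were in the list (46.2%), and of 10 fibroblast and 10 blood markers, 0 were, beside 31% of all RefSeq protein-coding genes. These small counts concern presence in the list only and do not establish the cell type.

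Ribosomal proteins assemble with ribosomal RNA into the small subunit, which decodes messenger RNA, and the large subunit, which joins amino acids. Their messenger RNAs are known for a terminal oligopyrimidine (TOP) motif, a C at the first transcribed base followed by an unbroken run of C and T, through which mTOR signalling and LARP1 control their translation. Many of their introns carry small nucleolar RNAs (snoRNAs), which guide the modification of ribosomal RNA. Promoter-proximal pausing is the halt of Pol II just downstream of the start, held by NELF and DSIF until P-TEFb acts.

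The list held 39 of the 81 RefSeq ribosomal protein genes (48.1%, 95% Wilson interval 37.6 to 58.9%), beside 31% of all 20037 protein-coding genes of RefSeq's assembled chromosomes, the mitochondrial one left out. By subunit, 22 of 49 large subunit genes and 17 of 32 small subunit genes were listed. No entry of the list was shorter than 3005 bp, and 16 of the 42 missing genes were below that length. These were RPL8, RPL10A, RPL10L, RPL29, RPL36, RPL41, RPLP2, RPS2, RPS12, RPS15, RPS16, RPS21, RPS25, RPS26, RPS27 and RPS28. Another 21 were long enough but overlapped a protein-coding gene or had one within 1000 bp. These were RPL3L, RPL4, RPL5, RPL7, RPL7A, RPL9, RPL10, RPL12, RPL15, RPL17, RPL18, RPL23A, RPL26, RPL27A, RPL31, RPL32, RPL35, RPL35A, RPS18, RPS27A and RPS29. The remaining 5, RPL13A, RPL39L, RPS6, RPS15A and RPS20, were neither short nor close to a coding gene by this measure. RPS6 encodes the small subunit protein phosphorylated by S6 kinases, and it lay 1434 bp from the nearest coding gene.

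**Figure D1:**
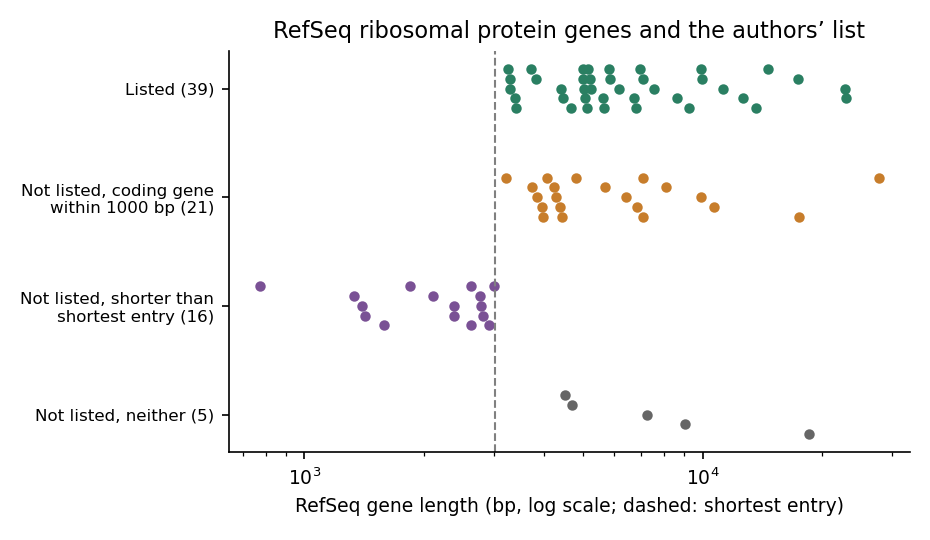
Length of the 81 RefSeq ribosomal protein genes in bp on a log scale, 1 point per gene, by whether the gene was listed and, if not, by its class. The 39 listed genes all lie to the right of the dashed line at 3005 bp, and the 16 short genes to its left; vertical spread within a class has no meaning.

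Among ribosomal protein genes of at least 3005 bp without a coding gene within 1000 bp, 32 of 37 were listed (86.5%, 95% Wilson interval 72.0 to 94.1%). The same share was 44.0% of other protein-coding genes (4834 of 10989). With a coding gene that close, 7 of 28 ribosomal protein genes (25%) and 18.9% of other coding genes were listed. Length and neighbours are those of the RefSeq gene. Any other coding record that overlaps the gene counts as a neighbour, as RPS10-NUDT3 does for RPS10 and RPL36A-HNRNPH2 for RPL36A. A close neighbour is therefore not always a separate gene beside it. Measured from the listed interval instead, which can be shorter, 4 of the 39 members had a coding gene within 1000 bp. Absence from the list coincided with length or a close neighbour in 37 of the 42 missing genes, and whether a missing gene has a pause site was not tested. The length limit was taken from the list itself, so the absence of the 16 shorter genes follows from that choice. Both traits were common in listed and missing genes together. Of all 81 ribosomal protein genes, 16 were shorter than 3005 bp, and 28 of at least that length had a coding gene within 1000 bp. Among the 19956 other protein-coding genes these numbers were 1927 and 7040.

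The listed ribosomal protein genes shared the kind of sequence on which their listed 5′ end falls. Sequences are RefSeq promoter windows of assembly GRCh38.p14, which shares its primary coordinates with hg38, and they covered the listed start of 29 members. The 13 windows below run 5′ to 3′ along the gene from 10 bases before the listed start to 19 bases after it, in order of pause distance, and were chosen to span that distance and the length of the run. Capitals mark the unbroken run of C and T that begins at the listed start.
RPLP1 (chr15:69452811-69452840, plus strand): gcgagagcccCTTTCCTCagctgccgccaa
RPS14 (chr5:150449718-150449747, minus strand): ctcccactctCTCTTTCCggtgtggagtct
RPL34 (chr4:108620567-108620596, plus strand): ttttttcttcCTCTTCCggggacgttgtct
RPL3 (chr22:39319604-39319633, minus strand): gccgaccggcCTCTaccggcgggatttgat
RPS27L (chr15:63157456-63157485, minus strand): tgccgagcgcagatcgcttgcagcttgcta
RPS19 (chr19:41860247-41860276, plus strand): ccgtcgttccCTTTCCCCTggctggcagcg
RPLP0 (chr12:120201088-120201117, minus strand): cgaggcccttCTCTCgccaggcgtcctcgt
RPL11 (chr1:23691796-23691825, plus strand): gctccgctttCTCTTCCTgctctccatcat
RPL39 (chrX:119791606-119791635, minus strand): agcttccctcCTCTTCCTTTCTCCgccatc
RPS24 (chr10:78033853-78033882, plus strand): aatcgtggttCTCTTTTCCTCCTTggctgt
RPL38 (chr17:74203668-74203697, plus strand): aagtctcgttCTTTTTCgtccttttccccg
RPS3A (chr4:151099619-151099648, plus strand): ccacttccgcCCTTTTggctctctgaccag
RPL36A (chrX:101391005-101391034, plus strand): cggtttctttCTTTCCgcgccgatagcgct

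A listed start was called a TOP start where the first listed base was C and the next 4 bases were all C or T. Of the 29 ribosomal protein genes with sequence, 27 began on a TOP start (93.1%, 95% Wilson interval 78.0 to 98.1%), beside 2.05% of all 4345 entries with sequence. The large subunit had 15 of 16 and the small subunit 12 of 13. Of the members named by the 3′ end alone it was 22 of 24 (91.7%), beside 2.1% of all entries named that way. The other 10 starts had no sequence, those of RPL6, RPL23, RPL27, RPL30 and RPL37 among them, and nothing is said of them. The intervals cover counting error only.

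The first listed base was a C in 28 of the 29 members, beside 3.41% of all entries with sequence. In the other entries it was A in 68.8% and G in 27.7%, and a pyrimidine stood before a purine at the start in 87.1%, the usual initiator pattern of Pol II. In members the base before the start was a pyrimidine in all 29. Runs of C and T from the start were 5 to 14 bases long in the 27 genes with a TOP start, with a median of 7. RPLP0, which encodes the base of the ribosomal stalk that recruits elongation factors, had the shortest of these, 5 bases. RPL39, which encodes a small protein of the polypeptide exit tunnel, and RPS24, a gene mutated in Diamond-Blackfan anaemia, had the longest, 14 bases each.

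Both exceptions are printed above. RPL3, which encodes a protein near the peptidyl transferase centre, began on a C, but its run ended after 4 bases, 1 short of the definition. RPS27L, the paralog of RPS27 known as a p53-induced gene, was the only member with an L suffix and the only member with sequence to begin on a purine. Its first listed base was an A, as in most other entries.

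**Figure D2:**
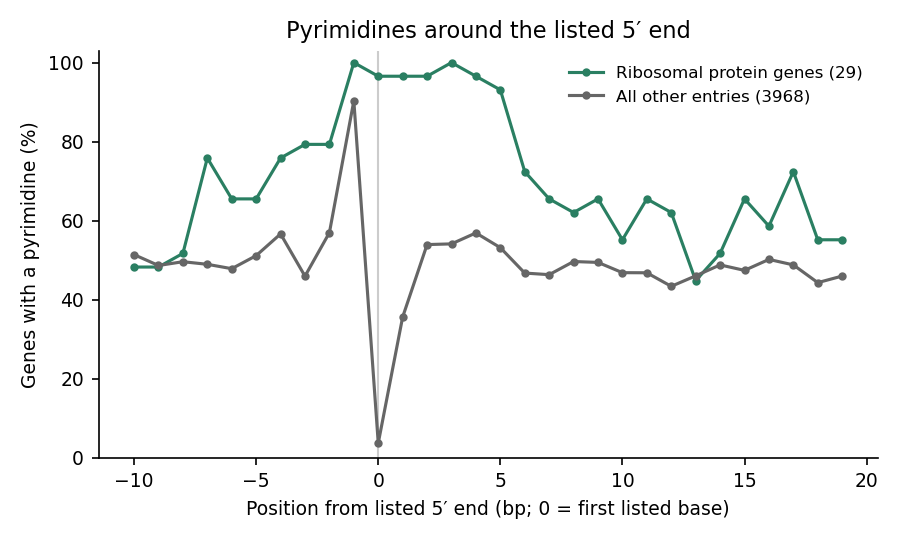
Share of genes (%) with a pyrimidine at each position from 10 bp before to 19 bp after the listed 5′ end, for 29 ribosomal protein genes and 3968 other entries with sequence over the whole window. At the first listed base the share was 96.6% in ribosomal protein genes and 3.73% in the others, and in ribosomal protein genes it stayed at 93.1% or above up to position 5.

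Listed and RefSeq starts differed for part of the members, and the TOP start was then found at the listed one more often than at the RefSeq one. Both starts were the same base in 15 of 39 members (38.5%), beside 26.4% of all 6207 named entries. They lay within 10 bp in 28 of 39, beside 41.1%. Naming by the listed start favours such agreement in the 5 members it added. Among the 34 members named by the 3′ end alone, both starts were the same base in 13 (38.2%), beside 25.8% of all entries named that way, and lay within 10 bp in 24 (70.6%), beside 39.9%. In 16 members with sequence at both, the starts were different bases. Of these, 15 had a TOP start at the listed base and 10 at the RefSeq base, and all of the latter 10 were among the 15. The 5 genes with a TOP start at the listed base alone were RPL13, RPL11, RPS4X, RPL19 and RPS7, whose listed starts lay 25, 27, 30, 34 and 65 bp downstream of RefSeq's. Among 2598 other entries with different starts, 24 had a TOP start at the listed base and 175 at the RefSeq base, the opposite order. The labels do not say how the listed starts were placed. The share of TOP starts in the other entries depended on where it was read, 1.44% at the listed base, 5.47% at the RefSeq start and 15.3% anywhere within 5 bp of the listed base, against 93.1%, 73.3% and 96.6% in ribosomal protein genes.

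Genes of neighbouring functions were compared through lists that were drawn up with earlier results of these data known. Their counts of listed genes stand beside 31% of all RefSeq protein-coding genes. Of 30 translation factor genes 20 were listed, and 5 of the 14 with sequence had a TOP start. These were EEF1A1 and EEF2, which encode the main elongation factors, EIF2S3, EIF4B and TPT1, named here after their values were seen. Ribosome biogenesis factors, which build ribosomes but are not part of them, had 30 of 65 genes listed and 1 TOP start among 22 with sequence, that of the RNA helicase gene DDX21. Mitochondrial ribosomal proteins, which serve the separate ribosome of the mitochondrion, had 31 of 77 genes listed and 0 TOP starts among 26 (95% Wilson upper bound 12.9%). Of the 11 ribosome partners and paralogs outside the rule, 5 were listed, and 2 of 4 with sequence had a TOP start, NACA and RPL22L1. RPL22L1, the paralog of RPL22, thus had a TOP start where RPS27L had none. In these lists too the count depended on where it was read. At the RefSeq start it was 7 of 15 translation factors, 4 of 24 biogenesis factors and 2 of 28 mitochondrial ribosomal proteins. Anywhere within 5 bp of the listed base it was 5 of 13, 4 of 21 and 5 of 26.

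**Figure D3:**
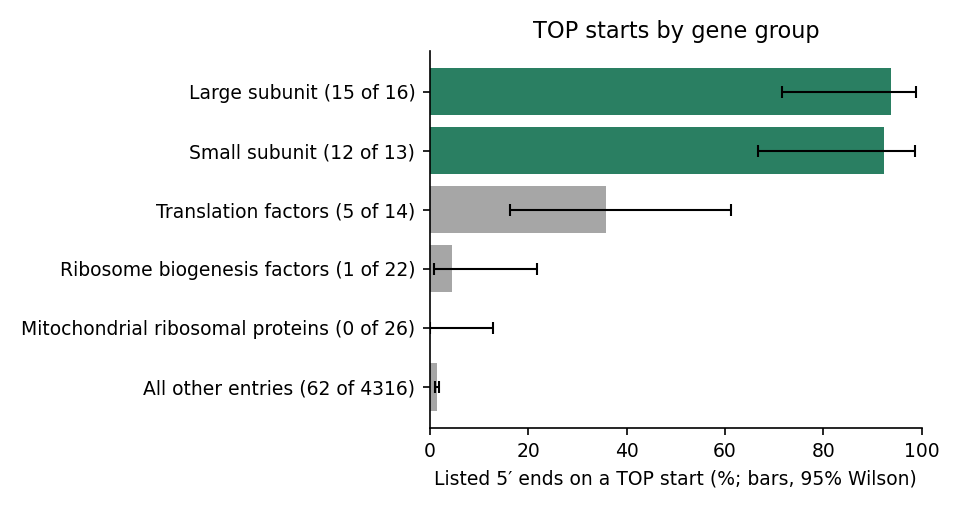
Share (%) of listed 5′ ends on a TOP start by gene group, with the number of genes in brackets and 95% Wilson intervals as error lines, which cover counting error only. The bars reach 93.8% for the large subunit (15 of 16) and 92.3% for the small subunit (12 of 13), against 35.7% for translation factors, 4.55% for biogenesis factors and 0% for mitochondrial ribosomal proteins. At the RefSeq start, which is not plotted, the shares in the same order were 70.6%, 76.9%, 46.7%, 16.7% and 7.14%.

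Upstream of the start, the members held TATA letters more often and were less rich in G and C than the other entries. TATA stood between 36 and 19 bases before the listed start in 6 of 29 members (20.7%), beside 3.52% of all entries with sequence. In the 9 bases from 32 to 24 before the start the median share of A and T was 55.6% in members and 33.3% in others. Over the 60 bases before the start the median G and C content was 65.0% and 71.7%. These 3 measures were chosen after the data were seen.

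Motifs were also searched on both strands of the 300-base RefSeq window, from 250 bases before to 50 after the RefSeq start, in 31 members. Where a gene had several windows, the one nearest the listed start was used. RPL6 and RPL27 are among the 31, although their windows do not reach the listed start. TATAAA was present in 3, those of RPL3, RPLP0 and RPS3, beside 4.14% of entries and 11.5% of all RefSeq windows. GGGCGG, the core of the GC box, was present in 21 of 31 (67.7%), beside 77.6% of entries and 45.0% of all windows. CCGGAAG, the core of ETS factor sites, was present in 8 of 31 (25.8%), beside 19.7% and 10.3%. AAGATGGC, part of YY1 sites, was present in 3, those of RPL21, RPL24 and RPS3, beside 5.84% and 2.89%. CACGTG, the E-box of MYC, was present in 0 of 31 (95% Wilson upper bound 11%), beside 10.4% and 7.26%. A match of letters is no evidence of binding, and an absent match concerns this window only.

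Pause distance, the number of bp from the listed 5′ end to the pause site along the gene, ran from 26 to 243 bp in the 39 ribosomal protein genes. Their median was 53 bp with quartiles of 38 and 67 bp, beside a median of 52 bp with quartiles of 38 and 84 bp in the 6442 other entries. The medians lay 1 bp apart, and the members' upper quartile was the lower one. No member had a pause site under 20 bp (0 of 39, 95% Wilson upper bound 8.97%), beside 7.08% of all entries. At 30 to 49 bp stood 17 of 39 members (43.6%, 29.3 to 59%), beside 32.8% of all entries, and at 100 bp or more stood 4 (10.3%, 4.06 to 23.6%), beside 18.9%. The Wilson intervals of the members contain each of these background shares. They describe counting error over genes, which are not replicates, and are no test. Measured from the RefSeq start in place of the listed one, 14 of 39 members (35.9%, 22.7 to 51.6%) stood at 30 to 49 bp, beside 18.5% of all named entries. At 100 bp or more from it stood 6 of 39 (15.4%, 7.25 to 29.7%), beside 42%. Both of these intervals leave out the share beside them and are likewise no test. Under 20 bp stood 0 of 39, beside 5.17%. Listed and RefSeq starts lay within 10 bp of each other in a larger share of members than of all entries, as given above, and the part of this in the shares from the RefSeq start was not tested.

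Distances of the small subunit ran from 26 to 117 bp. Among the shortest were RPS14 (31 bp), whose loss underlies the anaemia of the 5q- syndrome, and RPS10 and RPS13 (33 bp each). RPS9 and RPS27L followed at 38 bp each, and RPS23, which encodes a protein of the decoding centre, at 39 bp. RPS19, the gene most often mutated in Diamond-Blackfan anaemia, stood at 43 bp, the median of the subunit. In the middle of the range were RPSA (52 bp), whose protein is also known as the laminin receptor, RPS7 (54 bp) and RPS4X (55 bp). Beyond them lay RPS24 at 66 bp, RPS3, which encodes a protein of the mRNA entry channel, at 90 bp, and RPS3A at 96 bp.

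In the large subunit RPLP1, a stalk protein gene, had the shortest distance, 30 bp, from 69452821 to 69452851 on chromosome 15. RPL34 stood at 32 bp, RPL3 at 33 bp, RPL24 at 36 bp and RPL28 and RPL37A at 38 bp each. RPLP0 followed at 46 bp, and RPL13 and RPL11 at 47 bp each. RPL11 is known, with RPL5 and 5S RNA, to bind MDM2. A group of 6 genes lay between 53 and 64 bp, namely RPL6 (53 bp), RPL30 (56 bp), RPL39 (58 bp), RPL37 (59 bp), RPL14 (60 bp) and RPL19 (64 bp). RPL21 stood at 67 bp, RPL22 at 72 bp and RPL38, known for its part in the patterning of the mouse skeleton, at 85 bp. The 3 genes beyond 100 bp were RPL27 (111 bp), RPL36A (144 bp) and RPL23 (243 bp). RPL23 stood apart, 99 bp beyond the next member, and 97.1% of all entries had a shorter distance. Its listed 5′ end at 38853736 of chromosome 17 lay 15 bp upstream of RefSeq's, and it was the only member listed more than 10 bp upstream. The listed start of RPL6 lay 9230 bp downstream of RefSeq's and that of RPL27 205 bp downstream, so their distances hold for the listed start only.

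**Figure D4:**
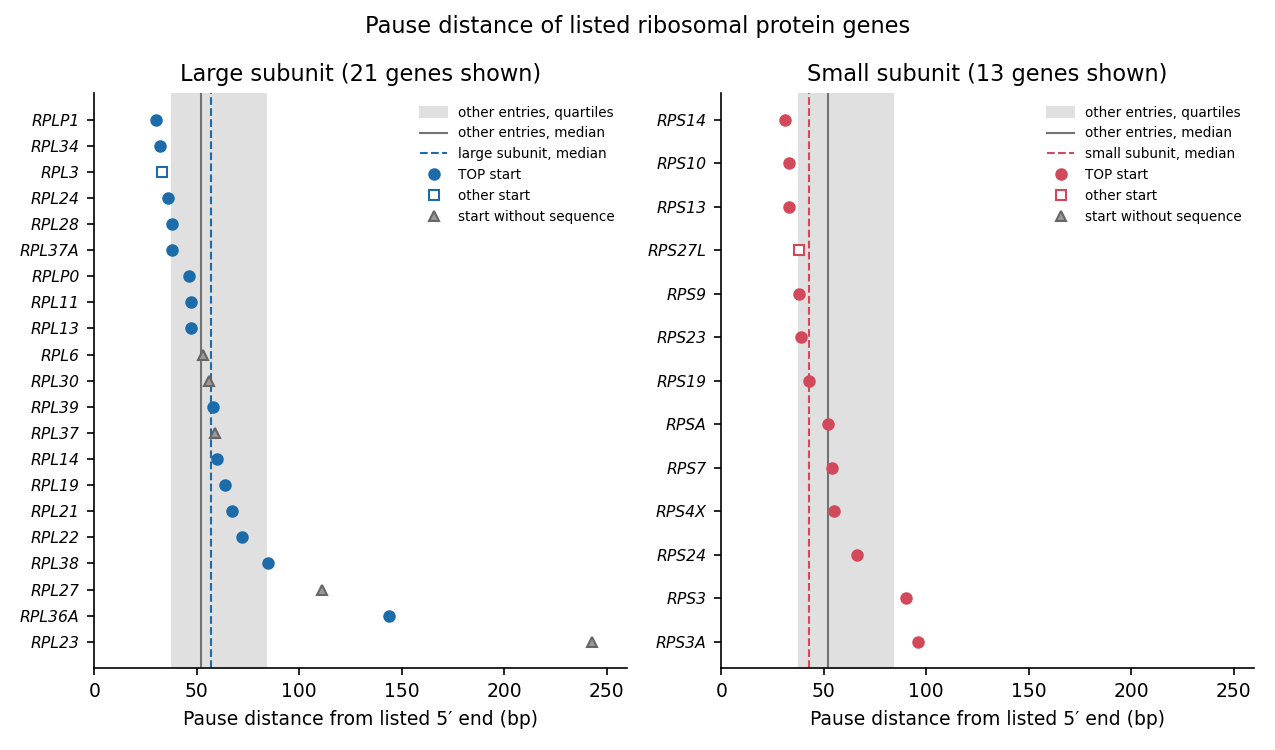
Pause distance in bp of 34 of the 39 listed ribosomal protein genes, 1 point per gene, by subunit (21 large, 13 small), with the symbol's shape showing the kind of start; the grey band spans the quartiles (38 to 84 bp) and the grey line the median (52 bp) of the other entries, and the dashed line the median over all members of the subunit. Most points lie in or just left of the band, and RPL23 at 243 bp lies farthest to the right.

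Between 30 and 117 bp the subunits overlapped, and RPL36A and RPL23 of the large subunit lay beyond that stretch. The median was 57 bp in the large subunit (quartiles 40 and 67 bp, 22 genes) and 43 bp in the small subunit (quartiles 34 and 66 bp, 17 genes). The difference of 14 bp was smaller than the distance between the quartiles of either subunit, and no test over samples exists for it. The means were 67.5 ± 47.5 bp and 54.8 ± 27.0 bp (SD over 22 and 17 genes). At 30 to 49 bp stood 9 of 22 large and 8 of 17 small subunit genes.

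**Figure D5:**
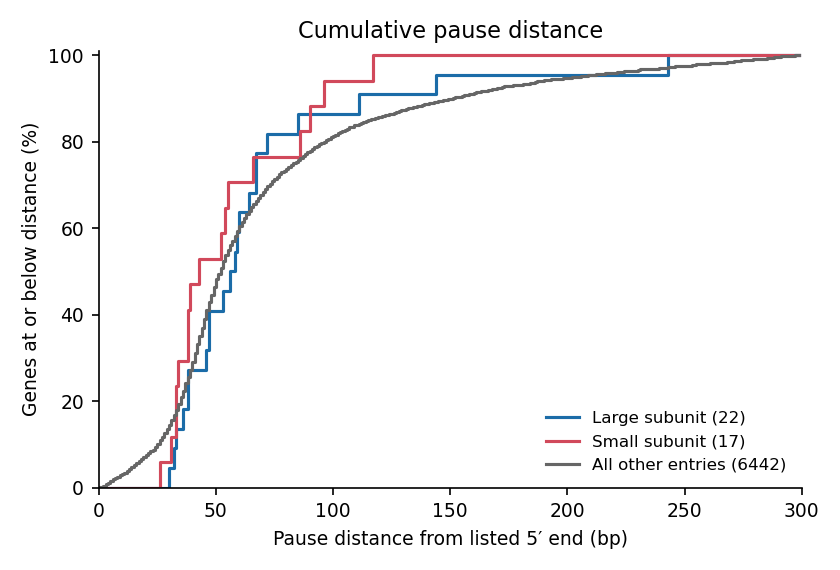
Share of genes (%) with a pause distance at or below each value in bp, for the large subunit (22 genes), the small subunit (17 genes) and the 6442 other entries. The small subunit curve reaches its median at 43 bp, the others' at 52 bp and the large subunit's at 57 bp, and no subunit curve leaves 0% before 26 bp.

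Distances on TOP starts spread over much of the range of the list. Ribosomal protein genes on a TOP start had a median distance of 47 bp (quartiles 38 and 65 bp, 27 genes), and the 62 other entries on a TOP start 56.5 bp (quartiles 39.8 and 117 bp). Other entries on another start had 53 bp (4254 genes). Of the TOP starts in the other lists, EEF2 stood at 54 bp, EIF4B at 49 bp, EIF2S3 at 46 bp and DDX21 at 47 bp. EEF1A1 stood at 172 bp, RPL22L1 at 169 bp, NACA at 157 bp and TPT1 at 133 bp.

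Pause distances were also summarised for the neighbouring lists. Translation factors had a median of 55 bp, from ETF1 (3 bp) through EEF2 to EIF3D (253 bp). Biogenesis factors had 45.5 bp, from UTP20 (21 bp) through PES1 (44 bp) to LSG1 (221 bp). Mitochondrial ribosomal proteins had 55 bp, from MRPL1 (9 bp) through MRPS21 (55 bp) to MRPS10 (218 bp). The 5 partners and paralogs had 65 bp, the value of BTF3, and the largest was that of RPL22L1.

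Sequence around the pause site was available for 16 members, whose sites lay 30 to 58 bp from the start, and for 1731 entries in all, since the RefSeq windows end 50 bases past the RefSeq start. The 10 windows below run from 10 bases before the pause site to 5 after it, with the pause site in capitals. They are shown because they hold letters of a 5′ splice site (GTAAG or GTGAG) or an ATG, except that of RPLP1, shown as one with neither.
RPL34 (chr4:108620599-108620614, plus strand): aggtatggatGttgtt
RPS13 (chr11:17077629-17077644, minus strand): atcatgggtcGcatgc
RPL28 (chr19:55385960-55385975, plus strand): agggaggtgaGcgttc
RPL37A (chr2:216498872-216498887, plus strand): gacatggtgaGtgtgg
RPS9 (chr19:54200886-54200901, plus strand): taggtgaggtGcggtg
RPS23 (chr5:82278310-82278325, minus strand): ggatgggtgaGctgtt
RPS19 (chr19:41860290-41860305, plus strand): gtaagcggggGctccg
RPLP0 (chr12:120201056-120201071, minus strand): agttagatggGcgcca
RPL39 (chrX:119791562-119791577, minus strand): catggtaagtCcatcg
RPLP1 (chr15:69452841-69452856, plus strand): ggtgctcggtCcttcc

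GTAAG or GTGAG, searched on the gene's strand, occurred in the 16 bases of 6 of 16 members (37.5%, 95% Wilson interval 18.5 to 61.4%), beside 3.29% of all entries with sequence. They were RPL28, RPL37A, RPL39, RPS9, RPS19 and RPS23. An ATG occurred in 7 of 16 (43.8%, 23.1 to 66.8%), those of RPL3, RPL34, RPL37A, RPL39, RPLP0, RPS13 and RPS23, beside 8.67%. Ribosomal protein genes are known for short first exons with the start codon close to the cap, and the letters alone do not show that a splice site or start codon is used. Among other entries with a pause distance of 20 to 49 bp the shares were 3.09% for the splice letters and 9.09% for ATG. Both searches were chosen after the sequences were seen.

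The pause site itself was a G in 11 of the 16 members, a C in 4 and a T in 1, and G stood there in 48.5% of all entries with sequence. The base after it was a C in 11 of 16 members (68.8%, 44.4 to 85.8%), a T in 4 (RPL3, RPL24, RPL34 and RPL37A) and an A in RPS10. Among all entries with sequence that base was a C in 86.3%, a share just above the members' interval. In all entries the base after the listed site was thus more uniform than the listed base. How sites were called is not stated, and whether the listed base or the next is the paused one was not tested. A site placed 1 base aside would change every distance by 1 bp.

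The listed ribosomal protein genes were short and often carried snoRNA genes. Their entries were 3206 to 14575 bp long with a median of 5177 bp, beside a median of 35795 bp in the other entries. The 39 genes were spread over 17 chromosomes, with 23 transcribed from the plus strand and 16 from the minus strand. Chromosome 19 held 6 of them (15.4%), RPL28, RPS9 and RPS19 among them, beside 5.82% of all entries. At least 1 RefSeq snoRNA gene lay inside 14 of the 39 entries (35.9%), beside 3.64% of all entries, and 26 snoRNA genes in all. RPL3 held 4, SNORD43, SNORD83A, SNORD83B and SNORD139, and no entry held more. The median pause distance was 58.5 bp in the 14 members with a snoRNA gene and 46 bp in the 25 without, with ranges of 26 to 243 bp and 30 to 144 bp that overlapped.

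Members were also divided by how near their listed start lay to RefSeq's. The 28 members within 10 bp of RefSeq's start had a median of 44.5 bp (quartiles 35.5 and 66.3 bp). The 11 farther away had a median of 55 bp (quartiles 50 and 89 bp). Start and distance share the listed 5′ end, so a start placed elsewhere changes the distance by construction.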

How the data were processed

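The authors deposited 2 lists for the whole series, gene intervals and pause sites of 1 bp, as hg38 coordinates in bp and with no other value, per the names of the lists and the submitters' processing notes. The tools listed there are deepTools 3.1.1, cutadapt 1.14 and Bowtie2 2.2.6. How starts and pause sites were called is not stated in the labels or lists. Both lists were joined by identifier and converted to 1-based positions. The lists carry no symbols. An entry took the symbol of the single RefSeq gene (GRCh38.p14) whose 3′ end lay within 50 bp and which covered at least 50% of it. This named 5822 entries, 34 of them members. Where no single gene matched, the 5′ end was used by the same limits, on the same strand where the gene's strand was known. This step, added after seeing the data, named 385 more and 5 members (RPL13, RPL28, RPL34, RPS3 and RPS24). Bases were read from RefSeq promoter windows. Shares have 95% Wilson intervals, and no test was run, since the lists hold no value per sample and genes are not replicates. Members and lists were chosen with earlier results of these data known. Listed and missing members are named, and of other lists the smallest, middle and largest distance, except 5 members and 1 other gene that are not reported here individually and enter the counts only. Naming by the 3′ end was tested on simulated entries made from RefSeq genes with a moved 5′ end, and base reading on the same RefSeq windows. Both read their own reference back, so they check the code only. Naming by the 5′ end was not tested. Scripts ran in Python 3.11.15 with pandas 2.3.3, matplotlib 3.10.9, SciPy 1.17.1 and NumPy 2.4.6.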

Additional observations from a re-analysis of the deposited data

How the results depend on the processing

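No paired analysis was possible because the lists hold no value per library. The members' median pause distance was 53 bp and the others' 52 bp. With listed starts within 10 bp of RefSeq's they were 44.5 and 51 bp, so that the members' was the lower, and with reciprocal-overlap names 54 and 52 bp. The means were 62 bp in members and 71.2 bp in the others. For distances under 200 bp the medians were 52.5 and 50 bp. The large subunit exceeded the small under all 6 alternatives, by 9.5 bp without RPS27L to 20.5 bp with reciprocal-overlap names. From 20 to 60 bp stood 66.7% of members and 53.3% of the others. Measured from the RefSeq start, 35.9% of members and 18.4% of the others stood at 30 to 49 bp, and the members' interval then no longer held the share of all entries. That distance adds the offset between both starts to the listed distance, and the interval is no test. The share of members listed rose from 48.1% to 60% from 3005 bp on and to 86.5% without a close coding neighbour. As 3005 bp is the shortest entry of the list itself, the rise to 60% follows from that choice. TOP starts of members were 73.3% at the RefSeq start, and 62.1% where 6 pyrimidines were asked for. Those of the others were 15.3% within 5 bp of the listed base, 5.47% at the RefSeq start and 0.818% for 6 pyrimidines. The minimum of 6 and names by the 3′ end alone were chosen after seeing the data.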

Other observations

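The base after the pause site was a C in 87.0% of 878 other entries on the plus strand and in 85.8% of 837 on the minus strand, and a G in 0.342% and 0.239%. The pause site itself was a C in 21.5% and 19.6%. The 33 missing ribosomal protein genes with sequence at the RefSeq start had a TOP start there in 20 cases, and the 30 listed ones in 22 cases (73.3%).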
